A study of Homo sapiens with 12 samples.

Results

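Messenger RNA of 9 cytosolic and mitochondrial heat shock chaperones and of their transcription factor HSF1 was followed in HCT116 cells, a line established from a human colorectal carcinoma, after exposure to dolastatin 15. The drug is a peptide of marine origin that keeps tubulin from assembling into microtubules. The 10 genes are HSF1, HSPA1A, HSPA1B, HSPA8, DNAJB1, HSPH1, HSP90AA1, HSPB1, HSPD1 and HSPE1. They were taken by their GENCODE 29 symbol from the 58174 gene rows of the deposited table, and all 10 were among the 13458 genes tested. Cells received 20 nM dolastatin 15, 100 nM dolastatin 15 or the solvent alone for 16 h or 24 h, which gives 6 groups of 2 libraries. Every group, solvent controls included, had DMSO at 0.25% in medium with 5% serum. Values are FPKM, that is, fragment numbers normalized for transcript length and sequencing depth, and libraries carry the numbers of the table's columns. At 16 h, libraries 1 and 2 received 20 nM, libraries 3 and 4 received 100 nM and libraries 5 and 6 received solvent. At 24 h, libraries 7 and 8 received 20 nM, libraries 9 and 10 received 100 nM and libraries 11 and 12 received solvent. The labels speak of duplicates and do not say whether each came from its own culture. P-values therefore reflect no more than the spread between duplicates, and that spread may be technical.

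Heat shock proteins hold other proteins in a foldable state, refold them or pass them on for degradation. When unfolded protein accumulates, HSF1 is released from chaperones, assembles into trimers, enters the nucleus and binds heat shock elements, arrays of alternating GAA and TTC units in the promoters of chaperone genes. Some of these genes are expressed at high levels without stress (HSPA8, HSP90AA1, HSPD1 and HSPE1 among them), and many tumour lines express the inducible ones as well.

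Promoter windows of some of these genes hold units of the heat shock element. RefSeq promoter windows on GRCh38.p14 hold 300 bases each, and 9 of the 10 genes had at least 1 window, 13 windows in all; HSF1 had none. A pair of units was searched as GAANNTTC or TTCNNGAA, each of which is its own reverse complement, so both strands are covered. A pair occurred in 13.5% of all 35116 windows and in 8 of the 13 windows of these genes. By gene, 7 of the 9 held one in at least 1 window. A run of 3 units, GAANNTTCNNGAA or TTCNNGAANNTTC, includes 2 overlapping pairs. It occurred in 0.49% of all windows (172 windows) and in those of HSPA8, HSP90AA1 and HSPD1. No pair was found in the windows of HSPH1 and HSPE1, which says only that these letters are not in those bases. Positions count from the RefSeq start, negative upstream. The HSPA1A pair began at -106 and the HSPA1B pair at -105. DNAJB1 held pairs at -77 and -47 before the start at 14518397, and HSPB1 held one at -182. The sequences below are the stretches of these windows outside annotated exons, for HSPA1A, HSPA1B and DNAJB1 because these genes carried the largest decreases at 24 h, and for HSPB1 because its levels went the other way. For HSPA8, HSP90AA1 and HSPD1 no stretch outside annotated exons held a whole pair. Only 30 bases around a run of 3 or more units are given for these genes. HSPA8 held another such run nearer the start, at -55, which is not printed. Capitals mark GAA and TTC units that belong to a pair. The last G of the HSP90AA1 site is the start of a GAA unit cut off at the end of the 30 bases.
HSPA1A promoter, chr6:31815293-31815463, plus strand: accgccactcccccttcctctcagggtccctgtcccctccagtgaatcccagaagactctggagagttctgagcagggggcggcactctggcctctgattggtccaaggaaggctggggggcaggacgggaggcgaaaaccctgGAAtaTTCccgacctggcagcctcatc
HSPA1B promoter, chr6:31827488-31827734, plus strand: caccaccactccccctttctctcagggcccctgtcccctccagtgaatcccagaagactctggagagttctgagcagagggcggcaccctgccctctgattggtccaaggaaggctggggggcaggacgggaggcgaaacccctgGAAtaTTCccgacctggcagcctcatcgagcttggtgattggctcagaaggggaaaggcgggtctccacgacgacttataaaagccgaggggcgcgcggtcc
DNAJB1 promoter, chr19:14518421-14518647, minus strand: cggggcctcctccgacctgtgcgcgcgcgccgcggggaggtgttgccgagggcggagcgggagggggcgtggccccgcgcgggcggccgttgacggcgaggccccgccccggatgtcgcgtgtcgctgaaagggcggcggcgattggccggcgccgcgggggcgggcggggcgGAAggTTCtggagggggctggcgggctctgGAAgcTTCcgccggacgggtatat
HSPB1 promoter, chr7:76302423-76302543, plus strand: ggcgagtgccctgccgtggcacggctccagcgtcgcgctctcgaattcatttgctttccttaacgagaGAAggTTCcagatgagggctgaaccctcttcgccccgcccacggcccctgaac
HSPA8 site, chr11:123062341-123062370, minus strand: gcttGAAagTTCcaGAAcgctgcggtgagt
HSP90AA1 site, chr14:102087107-102087136, minus strand: gttcTTCcgGAAggTTCgggaggcTTCtgG
HSPD1 site, chr2:197500060-197500089, minus strand: cattTTCtgGAAagTTCtgGAAccgagcga

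The 30 bases that start 4 bases before the pair were the same letters in HSPA1A and HSPA1B. The HSPD1 site lies between the RefSeq starts of HSPD1 (197499840, minus strand) and HSPE1 (197500379, plus strand), which point away from each other. Another RefSeq start of HSPD1, at 197500274, lies between the site and the HSPE1 start. Genes with such letters are found among the members that fell, those that rose and those that did not pass the test, and a match is a description, not evidence of binding.

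Library sums of FPKM ran from 911720.3 to 1049886.3. Low values lay on steps of whole fragments in 87.3% to 91.8% of cases, within 0.1 of a fragment, where 20% of evenly spread values would, and these steps put the depth at an estimated 28800000 to 42000000 fragments per library. Libraries of one group correlated at 0.991 to 0.994 on the log2 scale, and libraries of different groups at 0.978 to 0.992. The share of FPKM in genes of the mitochondrial genome ran from 17.9% to 25.8%. At 24 h it was 23.8% and 25.8% at 20 nM, against 17.9% and 18.6% in solvent and 18.8% and 20.7% at 100 nM. The 16 h libraries ran up to 24.5%, in library 4. Of 5 epithelial markers, EPCAM (250.6 to 335 FPKM), KRT8 (409.63 to 458 FPKM) and KRT18 (204 to 253 FPKM) were abundant, CDH1 was at 2.91 to 3.92 FPKM and VIL1 at no more than 0.22 FPKM. Of 4 mesenchymal and stromal markers, VIM (63.1 to 78.9 FPKM) and COL1A1 (1.44 to 4.34 FPKM) were found, and COL3A1 and DCN did not exceed 0.13 FPKM. PTPRC, CD3E and LYZ, 3 of 4 leukocyte markers, did not exceed 0.11 FPKM. In bulk RNA, a smaller share of cells of some kind and less RNA per cell cannot be told apart.

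On the FPKM scale, which allows for length, the mean level over the 4 solvent libraries was highest for HSP90AA1 (1754 FPKM), followed by HSPA8 (1647), HSPD1 (1128), HSPB1 (1025), HSPE1 (717) and HSPA1B (600.0), and then by DNAJB1 (236), HSF1 (119), HSPH1 (20.0) and HSPA1A (8.52). HSPD1 and HSPB1 overlapped in these libraries, so this pair cannot be ordered. Together the 10 genes held 0.843% to 1.06% of the FPKM of nuclear genes in a library. The ratio of the highest to the lowest library was 2.88 for HSPA1A, 2.30 for HSPA1B, 1.92 for DNAJB1 and 1.77 for HSPA8, and it was 1.07 for HSP90AA1.

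**Figure D1:**
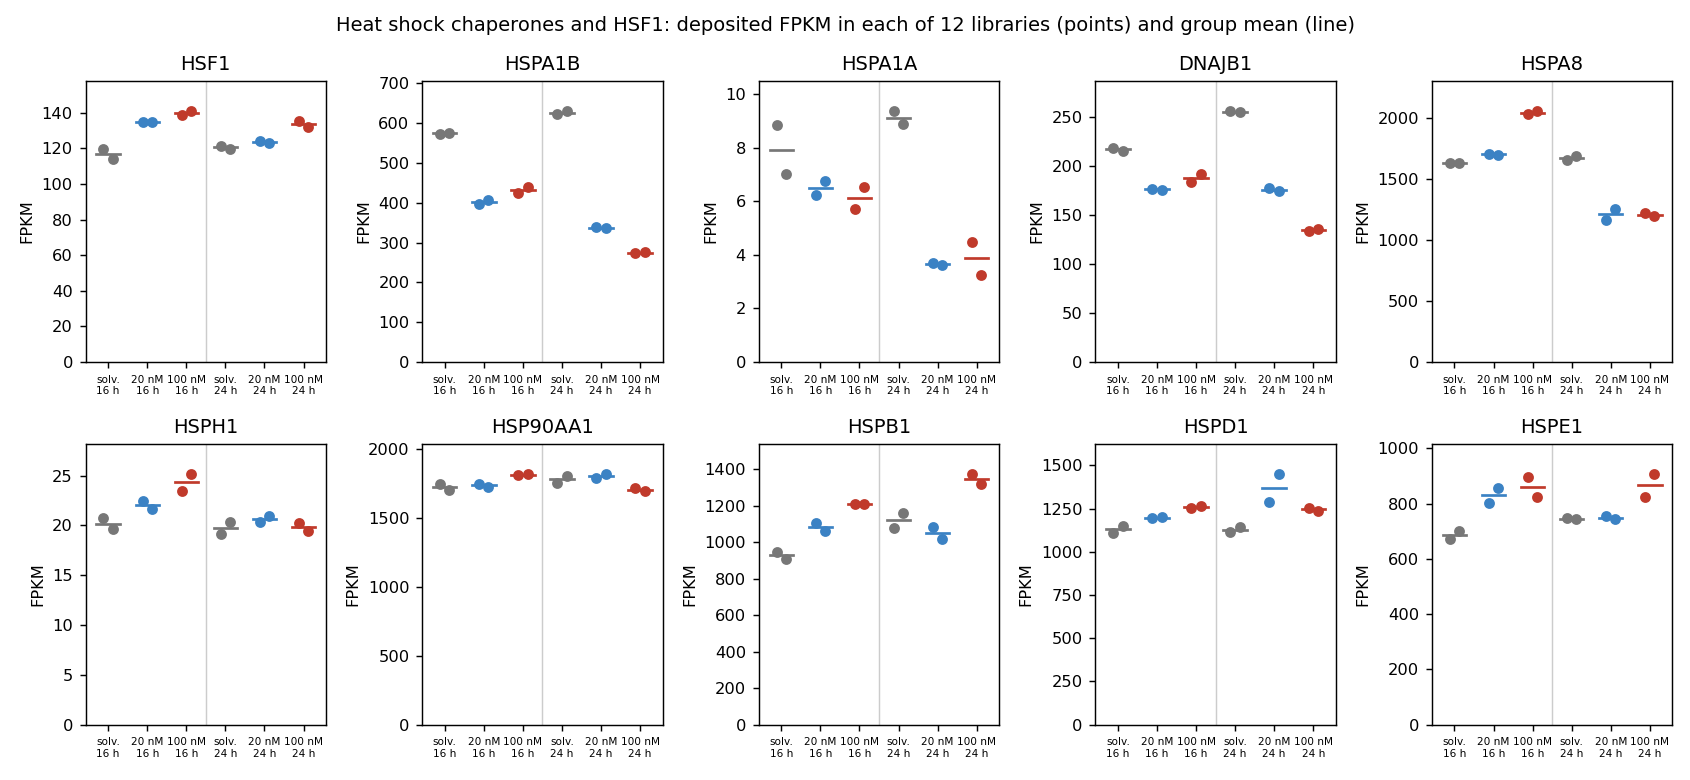
FPKM of each of the 10 genes (1 panel per gene, vertical axis in FPKM) in the 12 libraries, by dose and time, with points for libraries and short lines for the mean of 2. HSPA1B stands at 574 FPKM in solvent against 402 at 20 nM at 16 h, and at 627 FPKM in solvent against 275 at 100 nM at 24 h, while HSP90AA1 stays between 1696 and 1821 FPKM.

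Changes below are limma estimates on the log2(FPKM + 1) scale with their standard error (SE), and p-values are adjusted by Benjamini-Hochberg over all 13458 genes. A gene is said to rise or fall where this adjusted p was under 0.05. The comparisons at one time share the same 2 solvent libraries.

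HSF1 (ENSG00000185122), the factor that drives the heat shock response, rose by a small amount at both doses at 16 h. At 16 h it stood at 119 and 114 FPKM in solvent, 135 and 135 FPKM at 20 nM and 139 and 141 FPKM at 100 nM. Every treated library was above both solvent libraries. The log2 change was 0.21 (SE 0.0351, limma adjusted p = 0.00467) at 20 nM and 0.26 (adjusted p = 0.00105) at 100 nM. At 24 h the levels were 122 and 119 FPKM in solvent, 124 and 123 FPKM at 20 nM and 135 and 132 FPKM at 100 nM. The 20 nM libraries lay just above solvent and did not pass the test (log2 change 0.03, adjusted p = 0.507), and the 100 nM libraries were clear of solvent (log2 change 0.15, adjusted p = 0.0116). That last call ended without library 9 or library 12 (limma adjusted p = 0.0698 to 0.0793) and when libraries were rescaled to a common sum over all or over nuclear genes (adjusted p = 0.093 to 0.302).

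Of the inducible HSP70 pair, HSPA1B fell in all 4 comparisons with solvent and HSPA1A in those at 24 h. HSPA1B (ENSG00000204388, chr6:31827735-31830255, GRCh38) encodes the inducible cytosolic HSP70, the ATP-driven chaperone that binds exposed hydrophobic stretches. At 16 h it stood at 574 and 575 FPKM in solvent, 397 and 407 FPKM at 20 nM and 424 and 439 FPKM at 100 nM. All 4 treated libraries were below both solvent libraries, and the higher dose was not the lower in level. The mean fell by 30% at 20 nM (log2 change -0.51, SE 0.0310, limma adjusted p = 2.57e-05) and fell by 24.9% at 100 nM (log2 change -0.41, adjusted p = 3.81e-05). After 24 h it stood at 623 and 630.27 FPKM in solvent, 338 and 336 FPKM at 20 nM and 274 and 275 FPKM at 100 nM. Here the groups were ordered by dose with no overlap. The mean fell by 46.2% at 20 nM (log2 change -0.89, adjusted p = 2.25e-06) and fell by 56.2% at 100 nM (log2 change -1.19, adjusted p = 3.98e-07). The 20 nM libraries had the highest mitochondrial share of the 24 h libraries, and with libraries rescaled over nuclear genes alone the change there was -0.96.

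HSPA1A (ENSG00000204389, chr6:31815464-31817946) encodes nearly the same HSP70 protein from the neighbouring gene, and its listed level was 1.07% to 1.64% of the 2 genes' sum. Of the 100-base windows of its transcripts, 67.3% also occur in HSPA1B, and 68.8% of those of HSPA1B occur in HSPA1A, so how reads were divided between the copies is uncertain. At 16 h HSPA1A was listed at 8.84 and 7.01 FPKM in solvent, 6.24 and 6.77 FPKM at 20 nM and 5.70 and 6.53 FPKM at 100 nM. The doses overlapped each other and lay below both solvent libraries, which differed widely, and neither dose passed the test (log2 change -0.24, adjusted p = 0.246, and -0.32, adjusted p = 0.115). By 24 h HSPA1A was listed at 9.36 and 8.88 FPKM in solvent, 3.69 and 3.62 FPKM at 20 nM and 4.48 and 3.25 FPKM at 100 nM. Both doses were far below solvent and overlapped each other. The log2 change was -1.12 (SE 0.133, limma adjusted p = 0.000565) at 20 nM and -1.07 (adjusted p = 0.00053) at 100 nM. By the estimated depth, these values rest on about 270 to 750 fragments per library, a counting error of 3.7% to 6.1%. For the 2 copies summed before the fit, which does not depend on the division, the log2 changes were -0.51 and -0.41 at 16 h and -0.90 and -1.19 at 24 h (adjusted p = 2.66e-05, 3.98e-05, 2.25e-06 and 4.23e-07).

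HSPA8 (ENSG00000109971, chr11:123057489-123063230), the constitutive HSC70 that also uncoats clathrin vesicles, did not pass the test at 20 nM and rose at 100 nM at 16 h, and fell at both doses at 24 h. At 16 h it stood at 1624 and 1625 FPKM in solvent, 1704 and 1692 FPKM at 20 nM and 2025 and 2052 FPKM at 100 nM. The 20 nM libraries were slightly above solvent (log2 change 0.06, SE 0.0405, limma adjusted p = 0.315) and the 100 nM libraries were well above every other library of that time (log2 change 0.33, adjusted p = 0.00066). At 24 h HSPA8 stood at 1649 and 1689 FPKM in solvent, 1158 and 1255 FPKM at 20 nM and 1219 and 1191 FPKM at 100 nM. The doses overlapped and both were below solvent. The mean fell by 27.7% at 20 nM (log2 change -0.47, adjusted p = 0.000147) and fell by 27.8% at 100 nM (log2 change -0.47, adjusted p = 7.73e-05). The ratio of HSPA8 to HSPA1B was 2.83 in each solvent library at 16 h and 2.65 and 2.68 at 24 h. It was 4.16 to 4.78 in the treated libraries at 16 h and 3.42 to 4.44 at 24 h, higher in every treated library than in any solvent library. Of 17 rows named as HSPA8 pseudogenes, none reached 1 FPKM.

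Among the cochaperones of HSP70, DNAJB1 (ENSG00000132002, chr19:14514770-14529770), the HSP40 that delivers substrates and starts the ATP cycle, fell in the same 4 comparisons as HSPA1B. At 16 h it stood at 218 and 215 FPKM in solvent, 176 and 175 FPKM at 20 nM and 183 and 191 FPKM at 100 nM. At 24 h it stood at 256 and 255 FPKM in solvent, 177 and 174 FPKM at 20 nM and 133 and 136 FPKM at 100 nM. No treated library reached a solvent library of its time, and at 24 h the groups were ordered by dose. The log2 change at 16 h was -0.30 (SE 0.0333, limma adjusted p = 0.000606) at 20 nM and -0.21 (adjusted p = 0.00237) at 100 nM. At 24 h the mean fell by 31.2% at 20 nM (log2 change -0.54, adjusted p = 3.2e-05) and fell by 47.3% at 100 nM (log2 change -0.92, adjusted p = 8.16e-07). HSPH1 (ENSG00000120694, chr13:31134974-31162388), the HSP110 that exchanges the nucleotide of HSP70, did not follow this pattern. It stood at 20.7 and 19.6 FPKM in solvent at 16 h, 22.4 and 21.7 FPKM at 20 nM and 23.5 and 25.2 FPKM at 100 nM. The libraries were ordered by dose, and the change passed the test at 100 nM (log2 change 0.26, SE 0.0556, limma adjusted p = 0.0108) and not at 20 nM (0.12, adjusted p = 0.167). The call at 100 nM ended without library 4 or library 6 (adjusted p = 0.0707 to 0.0721). At 24 h all 6 libraries lay between 19.2 and 21.0 FPKM, with the groups overlapping (adjusted p = 0.45 at 20 nM and 0.941 at 100 nM).

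HSP90AA1 (ENSG00000080824, chr14:102080738-102139699), the inducible cytosolic HSP90 that matures kinases and hormone receptors and also holds HSF1 inactive, passed the test in no comparison. Its libraries ran from 1696 FPKM at 100 nM at 24 h to 1821 FPKM at 100 nM at 16 h. The log2 changes against solvent were 0.01 and 0.07 at 16 h and 0.02 and -0.06 at 24 h for 20 nM and 100 nM (SE 0.0312, limma adjusted p = 0.886, 0.132, 0.704 and 0.154). Scaling decided whether a change this small was called. Median-of-ratios scaling called it higher at 100 nM at 16 h (log2 change 0.11, adjusted p = 0.0275). A common sum over all genes called it lower at both doses at 24 h (-0.17, adjusted p = 0.00276, and -0.16, adjusted p = 0.00433), and a common sum over nuclear genes at 100 nM at 24 h (-0.13, adjusted p = 0.0091). HSP90AB1, the constitutive HSP90, was 1.36 to 1.55 times as abundant as HSP90AA1 in every library.

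HSPB1 (ENSG00000106211, chr7:76302544-76304295), the small heat shock protein HSP27 that holds unfolded clients without using ATP and acts on actin, rose at both doses at 16 h and at 100 nM at 24 h. At 16 h it stood at 948 and 909 FPKM in solvent, 1105 and 1064 FPKM at 20 nM and 1211 and 1209 FPKM at 100 nM. The groups did not overlap and were ordered by dose. The log2 change was 0.22 (SE 0.0484, limma adjusted p = 0.0143) at 20 nM and 0.38 (adjusted p = 0.00075) at 100 nM, and the call at 20 nM ended without library 1 or library 6 (adjusted p = 0.0882 to 0.0981). At 24 h HSPB1 stood at 1081 and 1162 FPKM in solvent, 1082 and 1018 FPKM at 20 nM and 1376 and 1318 FPKM at 100 nM. The 20 nM and solvent libraries overlapped (log2 change -0.09, adjusted p = 0.175, and -0.16, adjusted p = 0.015, when scaled over nuclear genes), and both 100 nM libraries were above all others (log2 change 0.26, adjusted p = 0.00341, and 0.17 under a common sum).

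HSPD1 (ENSG00000144381, chr2:197486581-197516737) and HSPE1 (ENSG00000115541, chr2:197499994-197503457) encode the mitochondrial chaperonin HSP60 and its lid HSP10. Their annotated spans overlap on opposite strands, and the strand setting of the authors' counting is not given in the sources used here. HSPE1 stood at 673 and 702 FPKM in solvent at 16 h, 802 and 857 FPKM at 20 nM and 895 and 824 FPKM at 100 nM. Treated libraries were all above solvent and the doses overlapped (log2 change 0.27, SE 0.0578, limma adjusted p = 0.0138, and 0.32, adjusted p = 0.00465). At 24 h HSPE1 stood at 747 and 745 FPKM in solvent, 754 and 744 FPKM at 20 nM and 824 and 908 FPKM at 100 nM. Only the 100 nM libraries stood clear of solvent (log2 change 0.21, adjusted p = 0.0208, against 0.01, adjusted p = 0.949, at 20 nM). The call at 20 nM at 16 h ended without library 2 or library 5 (adjusted p = 0.0916 to 0.0997). The call at 100 nM at 24 h ended without library 10, 11 or 12 (adjusted p = 0.0778 to 0.139), with no filter on low values and under both rescalings to a common sum (adjusted p = 0.0578 to 0.179).

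HSPD1 passed the test in 1 of the 4 comparisons with solvent. At 16 h it stood at 1111 and 1147 FPKM in solvent, 1193 and 1199.91 FPKM at 20 nM and 1252 and 1267 FPKM at 100 nM. At 24 h it stood at 1112 and 1142 FPKM in solvent, 1290.31 and 1451 FPKM at 20 nM and 1252 and 1238 FPKM at 100 nM. Every treated library was above both solvent libraries of its time, and library 8 at 20 nM was the highest of all. The log2 change was 0.28 at 20 nM at 24 h (SE 0.0504, limma adjusted p = 0.0041), and 0.08 (adjusted p = 0.291), 0.16 (adjusted p = 0.0509) and 0.14 (adjusted p = 0.0543) at 20 nM at 16 h, 100 nM at 16 h and 100 nM at 24 h. The call at 20 nM at 24 h ended when libraries were rescaled to a common sum (log2 change 0.09, adjusted p = 0.187), and this group had the highest mitochondrial share at 24 h. At 100 nM the change was called at both times without library 7 or library 8, the most unequal pair (adjusted p = 0.00514 to 0.0052), and with median-of-ratios scaling (adjusted p = 0.0283 at 16 h and 0.0323 at 24 h). The ratio of HSPD1 to HSPE1 ran from 1.36 to 1.95, with library 8 at the top. HSPE1-MOB4, a readthrough gene that shares 4.3% of the 100-base windows of HSPE1, was at 0.89% to 1.45% of the HSPE1 level. Of 26 HSPE1 and 17 HSPD1 pseudogene rows, 1 reached 1 FPKM in any library (HSPE1P2, 1.25 FPKM).

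**Figure D2:**
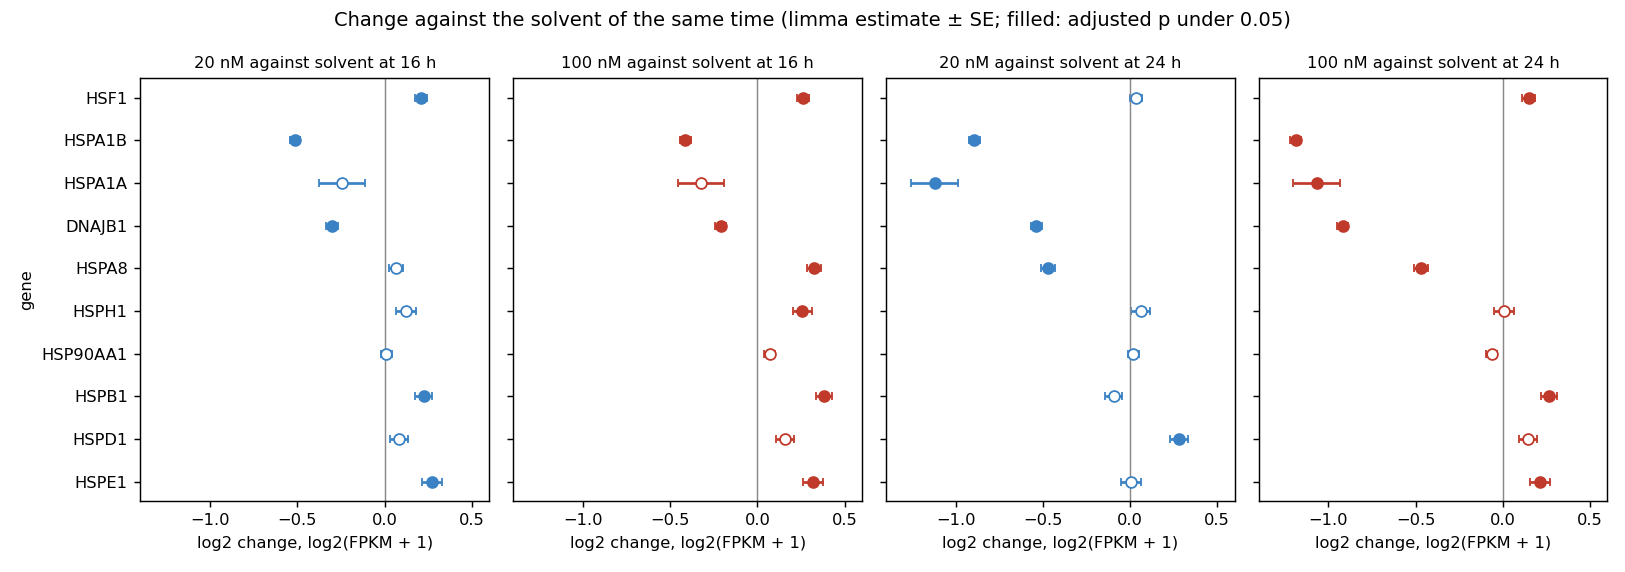
Log2 change against the solvent of the same time (horizontal axis, log2(FPKM + 1) scale) for each of the 10 genes in the 4 comparisons, with bars for the standard error and filled points where the limma adjusted p was under 0.05. HSPA1B and DNAJB1 are filled and left of 0 in all 4 panels, from -0.21 to -1.19, and HSF1 is filled and right of 0 in 3 panels.

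At 20 nM at 16 h, 3 of the 10 genes rose (HSF1, HSPB1, HSPE1) and 2 fell (HSPA1B, DNAJB1). Of all genes tested 17.7% were called, 912 higher and 1476 lower. At 100 nM at 16 h, 5 rose (those 3 with HSPA8 and HSPH1) and the same 2 fell, where 23.8% of all genes were called, 1233 higher and 1972 lower. At 20 nM at 24 h, HSPD1 rose and 4 fell (HSPA1B, HSPA1A, DNAJB1, HSPA8), where 28.8% of all genes were called, 1984 higher and 1896 lower. At 100 nM at 24 h, 3 rose (HSF1, HSPB1, HSPE1) and the same 4 fell, where 33.8% of all genes were called, 2075 higher and 2475 lower. Called members thus numbered 5, 7, 5 and 7 of 10, a larger share than that of all genes in each comparison. The members were chosen with earlier results of these data known, and genes near 1 FPKM are among all genes tested. The larger share is therefore a description only. The median log2 change of the 10 genes was 0.07, 0.21, -0.04 and -0.03 in the same order, beside -0.02, -0.03, 0.00 and -0.02 over all genes tested. Increases and decreases stood side by side in each comparison, so these medians do not stand for the single genes.

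The split of all genes called depended on the scaling. With median-of-ratios scaling it was 1241 higher and 1215 lower at 20 nM at 16 h and 1642 and 1653 at 100 nM at 16 h. Rescaling to a common sum gave 913 higher and 2386 lower at 100 nM at 16 h, 570 and 4666 at 20 nM at 24 h and 1145 and 3739 at 100 nM at 24 h. Over nuclear genes alone, these were 1323 and 2671 at 20 nM at 24 h and 1441 and 3357 at 100 nM at 24 h. The common sum moved the median of all genes by -0.165 at 20 nM at 24 h. In that setting no member rose and 8 fell there, HSP90AA1 (log2 change -0.17), HSF1 (-0.15), HSPE1 (-0.18) and HSPB1 (-0.28) among them. Relative to the moved median, the changes of HSP90AA1, HSF1 and HSPE1 were -0.007, 0.010 and -0.018, that of HSPB1 was -0.120 and that of HSPD1 was 0.255, while HSPA1B stood at -0.918 and HSPA1A at -1.119. Of the 39 called changes of members over the 9 comparisons, none turned its direction in any of the 23 alternatives and 23 kept their call in all of them that gave a value.

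Compared directly, the doses differed in the level of 1 member at 16 h and of 3 members at 24 h. At 16 h HSPA8 passed the test, higher at 100 nM (log2 difference 0.26, limma adjusted p = 0.0444), where 0.320% of all genes were called and 0.0446% were higher. This call ended without any one of libraries 1 to 6 and 9 to 12 (adjusted p = 0.0751 to 0.241) and in 5 other settings (0.0622 to 0.0993). At 24 h, where 4.88% of all genes were called, DNAJB1 (log2 difference -0.38, adjusted p = 0.0022) and HSPA1B (-0.29, adjusted p = 0.0031) were lower at 100 nM than at 20 nM, and HSPB1 was higher (0.36, adjusted p = 0.00852). All 3 calls ended when the 24 h libraries were fitted alone (adjusted p = 0.0641 to 0.0916), and that of HSPB1 also without library 9 (adjusted p = 0.0808). Of all genes called between the doses, 6 were higher and 37 lower at 16 h (2 and 56 under a common sum). At 24 h these were 245 and 412 (785 and 163 under a common sum, 392 and 284 with median-of-ratios scaling).

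Between the solvent groups, DNAJB1 (log2 difference 0.23, limma adjusted p = 0.0127) and HSPB1 (0.27, adjusted p = 0.0204) were higher at 24 h than at 16 h, where 5.62% of all genes were called and 3.14% were higher. Leaving out any one of libraries 5, 6, 11 and 12 ended both calls (adjusted p = 0.0524 to 0.132), and no filter on low values ended that of HSPB1 (adjusted p = 0.0578). Of all genes called, 423 were higher and 333 lower, which became 967 and 212 under a common sum, 362 and 544 over nuclear genes and 358 and 572 with median-of-ratios scaling.

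The change from solvent also differed between the times. Each such difference includes the move of the solvent level between the times, 0.23 for DNAJB1 and 0.27 for HSPB1 as given above. At 20 nM this move made up nearly all of the difference of DNAJB1 and most of that of HSPB1. In solvent HSPA1B (log2 difference 0.13, limma adjusted p = 0.0503), HSPA1A (0.19, adjusted p = 0.411) and HSPA8 (0.04, adjusted p = 0.594) were also higher at 24 h and did not pass the test. The effect of 20 nM was lower at 24 h than at 16 h for 5 members, where 11.5% of all genes were called and 4.46% were lower. The difference of effects on the log2 scale was -0.88 for HSPA1A (limma adjusted p = 0.0204), -0.53 for HSPA8 (adjusted p = 0.00139), -0.38 for HSPA1B (adjusted p = 0.00181), -0.32 for HSPB1 (adjusted p = 0.0204) and -0.24 for DNAJB1 (adjusted p = 0.0152). Under a common sum those of HSPA1B, HSPB1 and DNAJB1 were -0.57, -0.51 and -0.43. For 100 nM it was lower for 4 members, where 10.2% of all genes were called and 4.29% were lower. It was -0.80 for HSPA8 (adjusted p = 0.000162), -0.77 for HSPA1B (adjusted p = 6.65e-05), -0.75 for HSPA1A (adjusted p = 0.0392) and -0.71 for DNAJB1 (adjusted p = 0.000107). Of all genes called in these differences, 950 were higher and 600 lower at 20 nM, which became 345 and 2110 under a common sum, 615 and 919 over nuclear genes and 775 and 748 with median-of-ratios scaling. At 100 nM, 790 were higher and 578 lower, which became 546 and 903 under a common sum and 571 and 866 over nuclear genes. HSPA8 was the member that was raised at 16 h and lowered at 24 h at the same dose, 100 nM. Called members were all lower in both differences, with median differences over the 10 of -0.25 and -0.19 beside 0.03 and 0.01 over all genes. The calls of HSPA1B and HSPA8 held without any one library. At 20 nM, the call of DNAJB1 ended without library 1, 2, 6 or 11 (adjusted p = 0.05 to 0.0617), that of HSPB1 without library 1, 6 or 12 (0.0651 to 0.0794) and that of HSPA1A without library 1, 2, 6, 11 or 12 (0.0513 to 0.0707). At 100 nM that of HSPA1A ended without library 1, 2, 3, 4, 6, 10, 11 or 12 (adjusted p = 0.0569 to 0.116). With no filter on low values the calls of HSPA1A and of HSPB1 ended too (adjusted p = 0.0604 to 0.103).

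**Figure D3:**
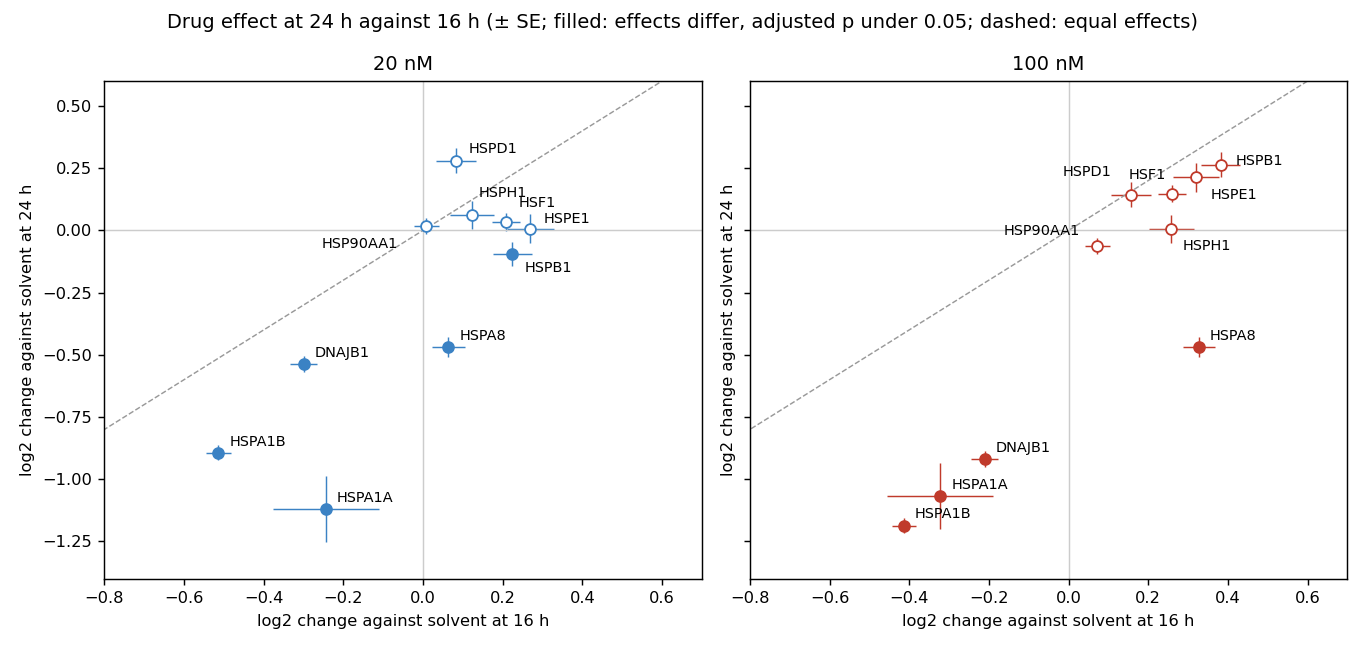
Log2 change against solvent at 24 h (vertical axis) plotted against that at 16 h (horizontal axis), for 20 nM and 100 nM, with bars for standard errors, a dashed line of equal effects and filled points where the effects differ at an adjusted p under 0.05. The filled points, 5 at 20 nM and 4 at 100 nM, lie below the line, and HSPA8 at 100 nM pairs 0.33 at 16 h with -0.47 at 24 h.

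Other genes of the heat shock response gave no single direction. Their counts of calls stand beside the shares of all genes called, 17.7%, 23.8%, 28.8% and 33.8% at 20 nM at 16 h, 100 nM at 16 h, 20 nM at 24 h and 100 nM at 24 h. Of 15 further heat-inducible HSF1 targets 12 were tested. At 16 h, 3 rose and 1 fell at 20 nM and 5 rose and 1 fell at 100 nM. At 24 h, 4 rose and 3 fell at 20 nM and 1 rose and 5 fell at 100 nM. HSPA6, the strictly stress-induced HSP70, was listed at 0 in 11 of the 12 libraries and at 0.01 FPKM in the other, and the small heat shock proteins HSPB8 and CRYAB did not exceed 0.53 and 0.41 FPKM. ZFAND2A, an arsenite- and heat-induced partner of the proteasome, was at 32.6 and 35.0 FPKM in solvent at 16 h, 52.3 and 49.4 FPKM at 20 nM and 56.2 and 63.2 FPKM at 100 nM. At 24 h it was at 29 and 31.4 FPKM in solvent, 46.8 and 47.6 FPKM at 20 nM and 51.19 and 51.2 FPKM at 100 nM. It rose in all 4 comparisons, by 0.58, 0.80, 0.63 and 0.74 on the log2 scale (limma adjusted p = 0.000721, 6.68e-05, 0.00034 and 9.37e-05), where HSPA1B fell in all 4. BAG3, the HSP70 cochaperone of selective autophagy, was at 96.1 and 98.5 FPKM in solvent at 16 h, 131 and 124 FPKM at 20 nM and 141 and 147 FPKM at 100 nM. At 24 h it was at 121 and 123 FPKM in solvent, 85.6 and 83.3 FPKM at 20 nM and 102 and 102 FPKM at 100 nM. It rose at 16 h (log2 change 0.39, adjusted p = 0.000334, and 0.56, adjusted p = 2.45e-05) and fell at 24 h (-0.52, adjusted p = 6.63e-05, and -0.25, adjusted p = 0.00138). CHORDC1, an HSP90 partner, fell at 24 h (-0.38, adjusted p = 0.000608, and -0.39, adjusted p = 0.000365).

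Among relatives and regulators of HSF1, none was called lower in the comparisons with solvent. Of 8 such genes 7 were tested, and 3, 3, 2 and 1 rose at 20 nM at 16 h, 100 nM at 16 h, 20 nM at 24 h and 100 nM at 24 h. FBXW7, the ubiquitin ligase adaptor that marks HSF1 for degradation, rose in all 4 (log2 change 0.42, 0.40, 0.21 and 0.42, limma adjusted p = 0.00398, 0.00343, 0.0479 and 0.0019), though at 20 nM at 24 h the call ended without any one of 10 libraries (all but 3 and 4; adjusted p = 0.0565 to 0.217). HSF2BP, an HSF2 binding protein, rose at 100 nM at 16 h (0.53, adjusted p = 0.00683, and 0.83 with a pseudocount of 0.1). HSF2 rose at 20 nM at 24 h (0.41, adjusted p = 0.0236), a call that ended without library 7, 8 or 11 (adjusted p = 0.0687 to 0.154) and under a common sum (0.23). HSBP1, which binds HSF1 trimers, rose at 20 nM at 16 h (0.54, adjusted p = 0.0426), and that call ended without any one of libraries 1, 2, 5 and 7 to 12 (adjusted p = 0.0523 to 0.234; log2 change 0.32 without library 5) and in 5 other settings (adjusted p = 0.0501 to 0.121). The count of 3 at 20 nM at 16 h became 1 without library 1, 5, 9, 10, 11 or 12, and that of 2 at 20 nM at 24 h became 0 without library 7, 8 or 11 and with no filter, and 1 without library 1, 2, 9, 10 or 12.

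Of 12 genes for HSP90 and its cochaperones, 1, 3, 1 and 0 were called higher and 1, 1, 2 and 2 lower in the same order. The 3 calls at 20 nM at 24 h became 8 under a common sum, 6 over nuclear genes, 6 without library 7 and 1 without library 12, and the 4 at 100 nM at 16 h became 2 without library 4, 5 or 6. The 2 at 20 nM at 16 h became 1 without library 1, 2, 5 or 6, and the 2 at 100 nM at 24 h became 1 without library 1, 2, 5, 6 or 9 to 12 and 4 under both common sums. FKBP5, an HSP90-bound peptidyl-prolyl isomerase, fell in all 4 (log2 change -0.23, -0.23, -0.21 and -0.41, limma adjusted p = 0.00336, 0.00235, 0.00374 and 9.78e-05). The 2 genes called lower at 20 nM at 24 h, FKBP5 and HSP90AB1, stood at -0.39 and -0.32 under a common sum. That scaling moved the median of all genes by -0.165 there. STIP1, the adaptor between HSP70 and HSP90, rose at 16 h (0.19, adjusted p = 0.0219, and 0.25, adjusted p = 0.00517), and its call at 20 nM ended without any one of the 4 libraries compared (adjusted p = 0.0681 to 0.114). CACYBP rose at 100 nM at 16 h (0.47, adjusted p = 0.0135), a call that ended without library 4, 5 or 6 (adjusted p = 0.0509 to 0.0722; log2 change 0.29 without library 4). SUGT1, an HSP90 cochaperone of kinetochore assembly, rose at 20 nM at 24 h (0.19, adjusted p = 0.0112), and the call ended without library 12 (adjusted p = 0.0609) and under a common sum (adjusted p = 0.986).

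Among 12 further HSP70 cochaperones and relatives, listed in 13 rows because HSPA14 has 2 identifiers, 0, 1, 7 and 4 rows rose and 2 fell each time. The 9 calls at 20 nM at 24 h became 4 without library 11 and under a common sum, and 5 without library 7 or 12, over nuclear genes, with no filter and with the time point alone. The 2 at 20 nM at 16 h became 1 without library 1 to 6 or 9 to 12. HSPA2, a testis-enriched HSP70, fell in all 4 (log2 change -0.71, -0.82, -0.36 and -0.83, limma adjusted p = 0.00188, 0.000593, 0.025 and 0.000446) at levels of 1.24 to 3.96 FPKM, and its call at 20 nM at 24 h ended without library 7, 11 or 12 (adjusted p = 0.0855 to 0.126). HSPA14 (ENSG00000187522), a ribosome-bound HSP70, rose at 24 h (0.55, adjusted p = 0.000414, and 0.45, adjusted p = 0.000777). Of the 7 rows that rose at 20 nM at 24 h, only this one (log2 change 0.37) and 1 other kept the call under a common sum. The 2 rows that fell there kept theirs. DNAJB2 rose at 100 nM at 16 h (0.29, adjusted p = 0.00417).

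Of 8 mitochondrial chaperones and proteases, 1, 1, 4 and 3 rose and 0, 0, 1 and 0 fell. The 5 calls at 20 nM at 24 h became 2 without library 11 and under a common sum, and 3 without library 1, 2, 5, 6, 9, 10 or 12, with no filter, with a constant prior and with the time point alone. GRPEL1, the nucleotide exchange factor of mitochondrial HSP70, rose in all 4 (log2 change 0.30, 0.31, 0.22 and 0.44, limma adjusted p = 0.0156, 0.0113, 0.0398 and 0.00147). Only its call at 100 nM at 24 h held without each library: that at 20 nM at 16 h ended without library 1, 2, 5 or 6 (adjusted p = 0.0516 to 0.0989), that at 100 nM at 16 h without library 3, 5 or 6 (0.0534 to 0.0723) and that at 20 nM at 24 h without any one of 9 libraries (all but 3, 4 and 8; 0.0539 to 0.171) and in 5 other settings (0.0619 to 0.764). The log2 change of GRPEL1 at 20 nM at 24 h was 0.11 without library 7, 0.33 without library 8 and 0.03 under a common sum. None of the 4 genes that rose at 20 nM at 24 h kept its call under a common sum (limma adjusted p = 0.131 to 0.792). The gene that fell, TRAP1, kept its call in that setting (log2 change -0.30). At 20 nM at 24 h CLPX, the unfoldase of a matrix protease, rose (0.29, adjusted p = 0.00516), a call that ended under a common sum (0.10, adjusted p = 0.197). TRAP1, the mitochondrial HSP90, fell there (-0.11, adjusted p = 0.0398), a call that ended without any one of 9 libraries (all but 3, 4 and 7; adjusted p = 0.0516 to 0.158).

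The cytosolic chaperonin TRiC/CCT, which folds tubulin and actin, and the chaperones of the endoplasmic reticulum were the most closely related families set beside the 10 genes. Of 8 TRiC/CCT subunits, 0, 2, 5 and 4 rose and none fell. With median-of-ratios scaling the calls numbered 1 at 20 nM at 16 h, 4 at 100 nM at 16 h and 7 at 100 nM at 24 h. CCT2 rose at 24 h (log2 change 0.28, limma adjusted p = 0.0052, and 0.18, adjusted p = 0.0289). The call at 100 nM ended without any one of the 4 libraries compared (adjusted p = 0.0745 to 0.136) and that at 20 nM under a common sum (0.172). CCT5 rose at 100 nM at 16 h (0.14, adjusted p = 0.0201), a call that ended without library 3, 5 or 6 (adjusted p = 0.0802 to 0.106). Under a common sum, the call count of this family fell to 1 at 20 nM and 0 at 100 nM at 24 h. In that setting none of the 5 subunits that rose at 20 nM at 24 h kept its call (limma adjusted p = 0.123 to 0.807). The 1 call at 20 nM was therefore of another subunit. Without any one of libraries 9 to 12 the 4 calls at 100 nM at 24 h became 1, and the 2 at 100 nM at 16 h became 0 without library 3, 5 or 6 and 1 without any one of libraries 1, 2, 4 and 9 to 12. Of 12 chaperones of the endoplasmic reticulum, 2 and 3 rose and none fell at 16 h, and 1 rose and 5 fell at each dose at 24 h. At 16 h the 2 calls became 0 without library 1, 5 or 6 and 1 without library 2, and the 3 became 0 without library 4, 5 or 6. At 100 nM at 24 h the 6 calls became 3 without library 10 and with the time point alone, and 2 without library 11. PDIA4, a disulfide isomerase, fell at 24 h (-0.41, adjusted p = 0.000125, and -0.25, adjusted p = 0.000885). HYOU1, the exchange factor of the luminal HSP70, rose at 16 h (0.23, adjusted p = 0.0123, and 0.20, adjusted p = 0.0177) and fell at 24 h (-0.35, adjusted p = 0.00107, and -0.23, adjusted p = 0.00631). Its calls ended without library 1, 5 or 6 at 20 nM at 16 h (adjusted p = 0.0593 to 0.0868), without library 4, 5 or 6 at 100 nM at 16 h (0.0697 to 0.108) and without library 11 at 100 nM at 24 h (0.0502). DNAJB11, a luminal J-domain protein, was at its highest against solvent at 100 nM at 24 h (0.27, adjusted p = 0.00137). Under a common sum, further changes at 20 nM at 24 h that moved by over 1.5 times were those of FKBP5 (-0.39), HYOU1 (-0.54), DNAJA1 (-0.46), TRAP1 (-0.30), HSPA14 (ENSG00000187522, 0.37) and FBXW7 (0.04).

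**Figure D4:**
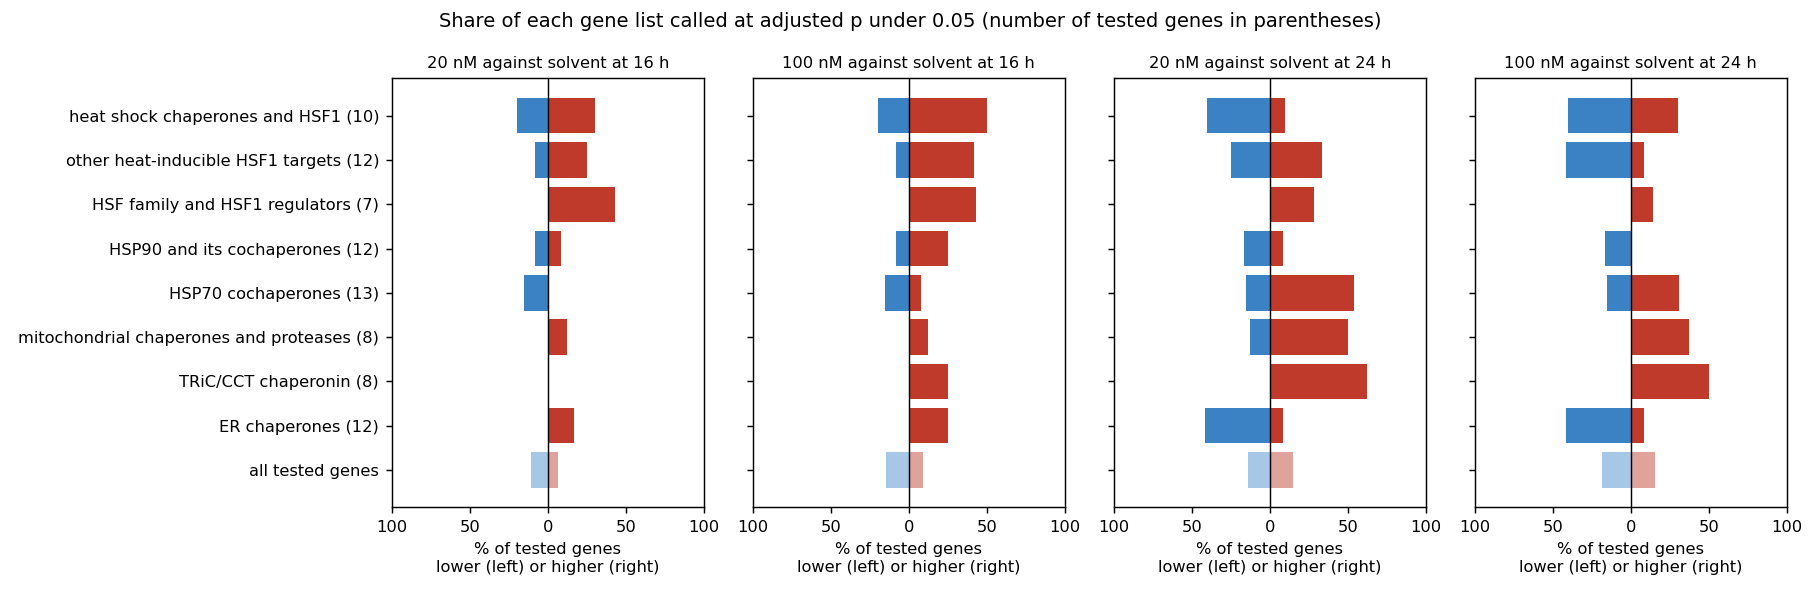
Share of tested genes called higher (right of 0) and lower (left of 0), in percent, for the 10 genes, for each related gene list and for all 13458 genes tested, in the 4 comparisons with solvent. The 10 genes are called in both directions in each panel, with 3 higher and 4 lower at 100 nM at 24 h, and TRiC/CCT subunits are called higher alone.

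Genes with the most similar pattern were ranked by Pearson correlation of log2(FPKM + 1) over the 12 libraries among 9480 protein-coding candidates. The libraries share groups, depth and normalization, so these values are a description. Closest to HSPA1B were ME1 (0.994), CLDN4 (0.991) and PGM1 (0.988), and closest to HSPA1A were NUDT3 (0.977), BMP8B (0.964) and NUP210 (0.960). For HSPA8 they were KIF14 (0.985), KIFC1 (0.981) and DNAJA1 (0.979), itself a J-domain partner of HSP70 that fell at 24 h (log2 change -0.27, limma adjusted p = 0.000518, and -0.31, adjusted p = 0.000192). DNAJB1 was closest to TRIM24 (0.983), HYLS1 (0.980) and CCNG1 (0.978). HSPH1 was closest to DZIP3 (0.976), SENP6 (0.950) and NUF2 (0.921). HSF1 was closest to CNTROB (0.974), NOP14 (0.955) and PTTG1 (0.952). For HSPD1 they were GSPT1 (0.947), MT-ND4 (0.944) and PUM3 (0.936), and for HSPB1 UBE2V1 (0.929), ACIN1 (0.927) and C19orf33 (0.922). For HSPE1 they were SNAI1 (0.914), ZNF593 (0.912) and EWSR1 (0.910), and for HSP90AA1 VPS28 (0.912), APBB2 (0.90) and ARHGAP26 (0.823). Within the 10 genes, HSPA1B and DNAJB1 were the most alike (0.964), followed by HSPA1A and HSPA1B (0.918), and HSF1 and HSPE1 reached 0.851.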

How the data were processed

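RNA from 12 samples of HCT116 cells, 1000 ng of total RNA each with an integrity number of at least 7, was poly(A)-selected and sequenced in pairs of 100 cycles, per the labels' protocols. The authors deposited 1 table of FPKM per gene and library, rounded to 2 decimals. The submitters' processing notes name RSEM 1.2.28 and GRCh38. Aligner, annotation and strand setting: not given in the sources used here. Columns name dose and time without the labels' sample number, so each library counts as 1 member of its group and nothing was paired. FPKM keeps no counts. Depth was estimated from the steps of low values, and no count test was run.

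Symbols and positions came from GENCODE 29 by identifier (57836 rows matched, 338 had no symbol). Genes with at least 1 FPKM in at least 2 libraries were tested. With limma 3.58.1 (R 4.3.3), 6 group means were fitted to log2(FPKM + 1) of all 12 libraries with a mean-dependent prior (6 residual and 2.98 prior degrees of freedom). The pseudocount of 1 understates changes of low genes such as HSPA1A. Tests of 9 comparisons were two-sided, with Benjamini-Hochberg adjustment over all genes tested, and lists are described by counts and medians with no test. In simulated data for 100 nM against solvent at 24 h (13458 genes, 5 draws), changes of 1.25-fold were recovered at a rate of 30.4% and those of 1.5-fold at 77.2%. Changes of 2-fold were recovered at 90% and those of 4-fold at 96.8%, while false calls made up 4.52%. Far fewer genes were changed in these draws than the 4550 called in the data, which makes the adjusted threshold stricter. The rates therefore need not hold for the data. Shared 100-base windows were counted over GENCODE 29 transcripts, and promoters span 250 bases before to 50 after each RefSeq start. Python 3.11.15 with pandas 2.3.3, numpy 2.4.6 and matplotlib 3.10.9 made tables and figures.

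The members and the gene lists were chosen with earlier results of these data known. The rule for named genes took all 10 members, for each list and drug comparison the largest called increase and decrease, and for each member the 3 protein-coding genes most correlated with it (higher group mean of at least 5 FPKM), besides readthrough genes and pseudogenes of the members. The full set of values of a gene so named may be given for other comparisons. The values of 1 leukocyte marker and of 1 further HSF1 target, which stays in its list's counts, are not reported here. Alternatives were pseudocounts of 0.1 and 0.5, no filter and a minimum of 5 FPKM, a common sum over all or over nuclear genes, median-of-ratios scaling, a constant prior, a time point alone, protein-coding genes alone, HSPA1A and HSPA1B summed, and leaving out each library in turn.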

Additional observations from a re-analysis of the deposited data

Results flagged for a closer look

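The effect of dolastatin 15 against solvent differed between 16 h and 24 h by a test of the difference itself (limma, adjusted over 13458 genes) for 5 members, in each case lower at 24 h. On the log2 scale the differences, 24 h minus 16 h, were -0.38 at 20 nM and -0.77 at 100 nM for HSPA1B and -0.88 and -0.75 for HSPA1A. HSPA8 differed by -0.53 and -0.80, and DNAJB1 by -0.24 and -0.71. HSPB1 passed the test at 20 nM, with -0.32, and not at 100 nM. Each value includes the move of the solvent level, which for DNAJB1 (log2 difference 0.23) and HSPB1 (0.27) was itself higher at 24 h. At 20 nM this move made up nearly all of the difference of DNAJB1 (-0.24) and most of that of HSPB1 (-0.32). In solvent HSPA1B (log2 difference 0.13), HSPA1A (0.19) and HSPA8 (0.04) were also higher at 24 h, without passing the test. For DNAJB1 and HSPB1 the treated levels were 176 and 175 FPKM (DNAJB1) and 1084.5 and 1049.8 FPKM (HSPB1) at 20 nM at 16 h and 24 h.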

How the results depend on the processing

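No paired analysis was possible because the columns carry no sample number of the labels, so no replicate block could be fitted. For the members' 55 reported changes, 1248 values under alternatives gave 1148 with the same direction and side of the threshold, 68 that lost and 17 that gained a call and 15 that turned direction, all of the last for changes not called. Rescaling to a common sum turned HSF1 (-0.15), HSP90AA1 (-0.17), HSPE1 (-0.18) and HSPH1 (-0.12) at 20 nM at 24 h and HSPH1 (-0.0852) at 100 nM at 24 h. Over nuclear genes these were -0.0338, -0.0503, -0.0617, -0.0043 and -0.0605. Without single libraries, HSP90AA1 ranged from -0.0102 to 0.0268 at 20 nM at 16 h and from -0.0038 to 0.0396 at 24 h, HSPE1 from -0.0028 to 0.0157 at 20 nM at 24 h and HSPH1 from -0.0364 to 0.0497 at 100 nM at 24 h. Among list genes at 20 nM at 24 h, a common sum turned DNAJA2 (-0.0416), DNAJB11 (-0.0412), CCT5 (-0.0135), CCT8 (-0.0744), CCT3 (-0.0249) and DNAJC7 (-0.0072).

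Members called at 20 nM at 24 h numbered 8 rather than 5 under a common sum. Between doses at 16 h, 0 rather than 1 were called with no filter, under both common sums, with a constant prior and with the time point alone, and 0 to 1 without single libraries. Between doses at 24 h, 5 rather than 3 were called under a common sum, 0 with the time point alone and 2 to 4 without single libraries. Between solvent groups, 1 rather than 2 was called with no filter and 0 to 3 without single libraries. For the 20 nM effect between times, 3 rather than 5 were called with no filter, 9 under a common sum (median of all genes moved by -0.169) and 2 to 6 without single libraries. For the 100 nM effect, 7 rather than 4 were called over nuclear genes.

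Counts of all genes called moved by over 1.5 times too. Between doses at 16 h, 43 became 28 with a constant prior and 10 with the time point alone, and between doses at 24 h, 657 became 334 with no filter, 411 with a constant prior and 9 with the time point alone. Between solvent groups, 756 became 326 with no filter and 1179 under a common sum, and for the 20 nM effect between times, 1550 became 1008 and 2455. Without single libraries the counts against solvent ran from 1036 to 2774 at 20 nM at 16 h (2388 in all), 1781 to 3615 at 100 nM at 16 h (3205), 2153 to 3765 at 20 nM at 24 h (3880) and 2757 to 5005 at 100 nM at 24 h (4550). They ran from 15 to 65 and 42 to 1511 between doses at 16 h and 24 h, 23 to 1437 between solvent groups, and 705 to 1753 and 632 to 1787 for the 20 nM and 100 nM effects between times. Where 1 library is left out, its lone partner is assumed to vary like the other groups. The cause of these moves was not tested. With 2 libraries a group, small changes may be missed. Changes of 1.25-fold were recovered in 30.4% of cases simulated for 100 nM against solvent at 24 h. Far fewer genes were changed there than the 4550 called in the data, so that rate need not hold for the data.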
